A study of Homo sapiens with 2 samples.

Results

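The RUNX1 peaks of chromosome 17 were examined, which are all entries of the RUNX1 ChIPseq peak list with a position on that chromosome. There were 595 of them among 13591 peaks in the whole list. The chromosome was chosen by its number of peaks per megabase in this same list, the highest of 23 chromosomes (1 to 22 and X), so that density is a description and is not tested. The list came from MCF10A, an established human breast epithelial line. The unmodified line does not form tumours, and the paper reports that deleting RUNX1 transformed it in culture and in mice. Both libraries were made from cells whose own RUNX1 had been deleted and which carried a lentiviral RUNX1 gene that doxycycline switches on, and both were treated with 1 µg/ml doxycycline for 24 hours. One library was immunoprecipitated with an antibody to RUNX1 and the other was input DNA with no antibody. With 1 library of each kind there is no replicate, the protein bound was supplied by a transgene rather than by the native gene, and the cells are 1 engineered line, so every difference below is a difference within this list and was not tested.

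RUNX1 is a DNA-binding transcription factor that works with a partner, CBFB, which strengthens its hold on DNA. Its best known recognition letters are TGTGGT, read as ACCACA on the other strand. RUNX factors bind both promoters and distant enhancers, and in mammary epithelium RUNX1 acts as a regulator of cell fate. Chromosome 17 carries many protein-coding genes together with clusters of related genes, among them the keratins, the HOXB genes, the growth hormone genes and one of the large groups of tRNA genes.

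RefSeq promoter windows, which run from 250 bases before to 50 bases after a gene's start, were available for 1639 starts on chromosome 17, covering 824 of its 1169 protein-coding genes. A RUNX1 summit, the base of highest signal in a peak, lay in 14 of these windows, 11 at protein-coding genes and 3 at long noncoding RNA (lncRNA) genes. Over all chromosomes, 440 of 35097 windows (1.25%) held a summit. The 4 windows printed here are the 2 lncRNA starts with the recognition letters near a summit and, for contrast, the 2 tallest protein-coding ones without them. Each runs 5′ to 3′ on the gene's strand from 250 bases before to 30 bases after the start, in GRCh38.p14, and capitals mark TGTGGT or ACCACA.

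LOC124904049 (chr17:68695070-68695349, minus strand): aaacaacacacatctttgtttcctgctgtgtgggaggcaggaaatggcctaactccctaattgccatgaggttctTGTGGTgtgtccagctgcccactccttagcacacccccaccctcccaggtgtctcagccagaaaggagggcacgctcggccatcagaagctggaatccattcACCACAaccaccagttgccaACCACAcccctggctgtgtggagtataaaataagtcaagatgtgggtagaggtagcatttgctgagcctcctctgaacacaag

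LOC101927018 (chr17:28926025-28926304, plus strand): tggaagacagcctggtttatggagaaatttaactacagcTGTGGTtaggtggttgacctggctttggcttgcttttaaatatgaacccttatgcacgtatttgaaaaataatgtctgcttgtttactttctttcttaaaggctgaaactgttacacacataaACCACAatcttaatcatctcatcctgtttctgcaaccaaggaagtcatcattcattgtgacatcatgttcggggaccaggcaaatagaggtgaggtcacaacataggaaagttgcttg

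RNF43 (chr17:58402692-58402971, minus strand): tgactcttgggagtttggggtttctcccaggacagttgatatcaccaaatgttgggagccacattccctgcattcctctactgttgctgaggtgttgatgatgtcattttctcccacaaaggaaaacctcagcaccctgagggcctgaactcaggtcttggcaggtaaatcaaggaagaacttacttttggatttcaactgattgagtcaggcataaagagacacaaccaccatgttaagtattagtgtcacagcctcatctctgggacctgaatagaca

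SMARCD2 (chr17:63842656-63842935, minus strand): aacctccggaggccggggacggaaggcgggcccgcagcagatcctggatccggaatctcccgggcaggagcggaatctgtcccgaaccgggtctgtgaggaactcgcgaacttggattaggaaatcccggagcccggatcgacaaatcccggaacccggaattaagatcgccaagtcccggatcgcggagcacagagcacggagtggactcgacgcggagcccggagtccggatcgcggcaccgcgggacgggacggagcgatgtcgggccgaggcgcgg

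In the LOC124904049 window the summit fell on base 120, and its 3 matches began at bases 76, 178 and 198. Its pileup, the number of extended ChIP tags stacked over the summit, was 36 (25.2 to 49.8), the tallest of the 14 and 93.9 kb from the nearest protein-coding gene, FAM20A, a pseudokinase of the secretory pathway. Ranges given after a pileup or a count are exact 95% Poisson intervals and those after a share are 95% Wilson intervals, and both cover counting error only. The peak at LOC101927018 had 22 tags (13.8 to 33.3), with its summit at base 22 and matches beginning at bases 40 and 163. That summit also lay inside the protein-coding gene PHF12, on a local background 1.67 times that of the genome. At RNF43, a ubiquitin ligase that removes Wnt receptors from the cell surface, 23 tags (14.6 to 34.5) stood over a window without these letters. At SMARCD2, a subunit of SWI/SNF chromatin remodelling complexes, there were 20 tags (12.2 to 30.9), again without the letters.

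The letters were searched on both strands of every window. They were in 4 of the 14 chromosome 17 windows with a summit (28.6%, 11.7 to 54.6%), in 224 of all 1639 windows of the chromosome (13.7%) and in 13.1% of the windows of all chromosomes. Over all chromosomes, 158 of the 440 windows with a summit held them (35.9%, 31.6 to 40.5%). The other chromosome 17 matches were at KRTAP29-1, a hair keratin-associated gene, and at FLCN, the tumour suppressor folliculin. The KRTAP29-1 summit had 21 tags and fell on base 278, where its match began. The FLCN summit had 13 tags and fell on base 160, and its match began at base 277. Windows with a summit and no match included those of MNT, a repressor that dimerizes with MAX (19 tags), COASY, an enzyme of coenzyme A synthesis (17 tags), SKA2, a kinetochore component (16 tags), TOB1, an antiproliferative gene (14 tags), NCBP3, a cap-binding protein (13 tags), and C17orf75 (13 tags). None of the 14 was among the 15 strongest peaks of the chromosome.

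Counted per megabase, chromosome 17 was the densest chromosome, and counted per protein-coding gene it was one of the sparsest. Its 595 peaks (548 to 645) over 83.2 Mb came to 7.15 per Mb (6.59 to 7.75), against 4.40 over all chromosomes. It was also second to chromosome 19 in gene density, with 14.0 protein-coding genes per Mb. Per protein-coding gene it held 0.509 peaks, rank 20 of 23, against 0.678 over all chromosomes. With every annotated gene counted, coding or not, it held 0.219 peaks per gene, close to the 0.228 over all chromosomes. The 23 values per Mb had chromosome 20 next at 6.53 and chromosome X lowest at 1.43.

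Chromosome 19, which packs its genes more tightly, held fewer peaks by both measures. It had 322 peaks, 5.49 per Mb (4.91 to 6.13), among 24.8 protein-coding genes per Mb. Its 0.222 peaks per protein-coding gene was the lowest ratio of the 23 chromosomes. Chromosome 17 thus had 1.30 times as many peaks per Mb as chromosome 19 (1.13 to 1.49, a counting interval) and 2.29 times as many per protein-coding gene (1.999 to 2.63). With every annotated gene counted, coding or not, the ratio per gene was 1.84 (1.60 to 2.11).

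A gene was counted as having a peak when a summit lay in it or within 5 kb of either end. On chromosome 17 this was so for 266 of 1169 protein-coding genes (22.8%, 20.4 to 25.2%), beside 24.8% of the protein-coding genes of all chromosomes. On chromosome 19 it was so for 230 of 1451 (15.9%, 14.1 to 17.8%). The chromosome 17 share was close to the background at this distance, and with 50 kb allowed on either side it was above it, 59.97% against 52.1%. A wider reach takes in more genes where peaks are denser, and the chromosome was chosen by that density. The share at 50 kb is therefore not a separate result. Of the 266, 174 had 1 peak, 50 had 2 and 42 had 3 or more. Genes with a peak had a median length of 32.4 kb and those without one 12.8 kb.

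Peaks of chromosome 17 were ordinary in height and width. Their median pileup was 18 tags, the same as on chromosome 19 and on all chromosomes but 17, and the quartiles were 15 and 22. The median fold enrichment, the pileup over the local background with 1 added to each, was 5.31 on chromosome 17, 5.13 on chromosome 19 and 5.03 on all chromosomes but 17. Median widths were 158, 152.5 and 153 bp in the same order. A fold enrichment of at least 10 was reached by 28 peaks of chromosome 17 (4.71%, 3.28 to 6.72%), by 9 of chromosome 19 (2.80%, 1.48 to 5.23%) and by 3.78% of the peaks elsewhere than on chromosome 17.

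The local background under the chromosome 17 peaks was near the genome background, which is the lowest value it can take. The input level, the local background recovered from each pileup and fold enrichment and expressed relative to the genome background, had a median of 1.02 on chromosome 17, 1.05 on chromosome 19 and 1.11 on all chromosomes but 17. In the 17 bins of 5 Mb described next, its median ranged from 1.00 to 1.25. A level of 1.5 or more was found under 95 chromosome 17 peaks (15.97%, 13.2 to 19.1%) and under 22.4% of the peaks on the other chromosomes.

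Along chromosome 17 the peaks were concentrated in 5 of 17 bins of 5 Mb. The last bin, 3.24 Mb long from 80 Mb to the end of the chromosome, was the densest, with 53 peaks or 16.4 per Mb (12.3 to 21.4). It was followed by 15 to 20 Mb with 60 peaks (12 per Mb, 9.16 to 15.4), 5 to 10 Mb with 56 (11.2, 8.46 to 14.5), 40 to 45 Mb with 53 (10.6, 7.94 to 13.9) and 70 to 75 Mb with 51 (10.2, 7.59 to 13.4). The intervals of all 5 overlap, so their order is not resolved by the counts. Together the 5 bins held 273 peaks, 45.9% of the total on 27.9% of the length. At the other end stood 20 to 25 Mb with 11 peaks (2.20 per Mb, 1.1 to 3.94) and 10 to 15 Mb with 15 (3 per Mb, 1.68 to 4.95).

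**Figure D1:**
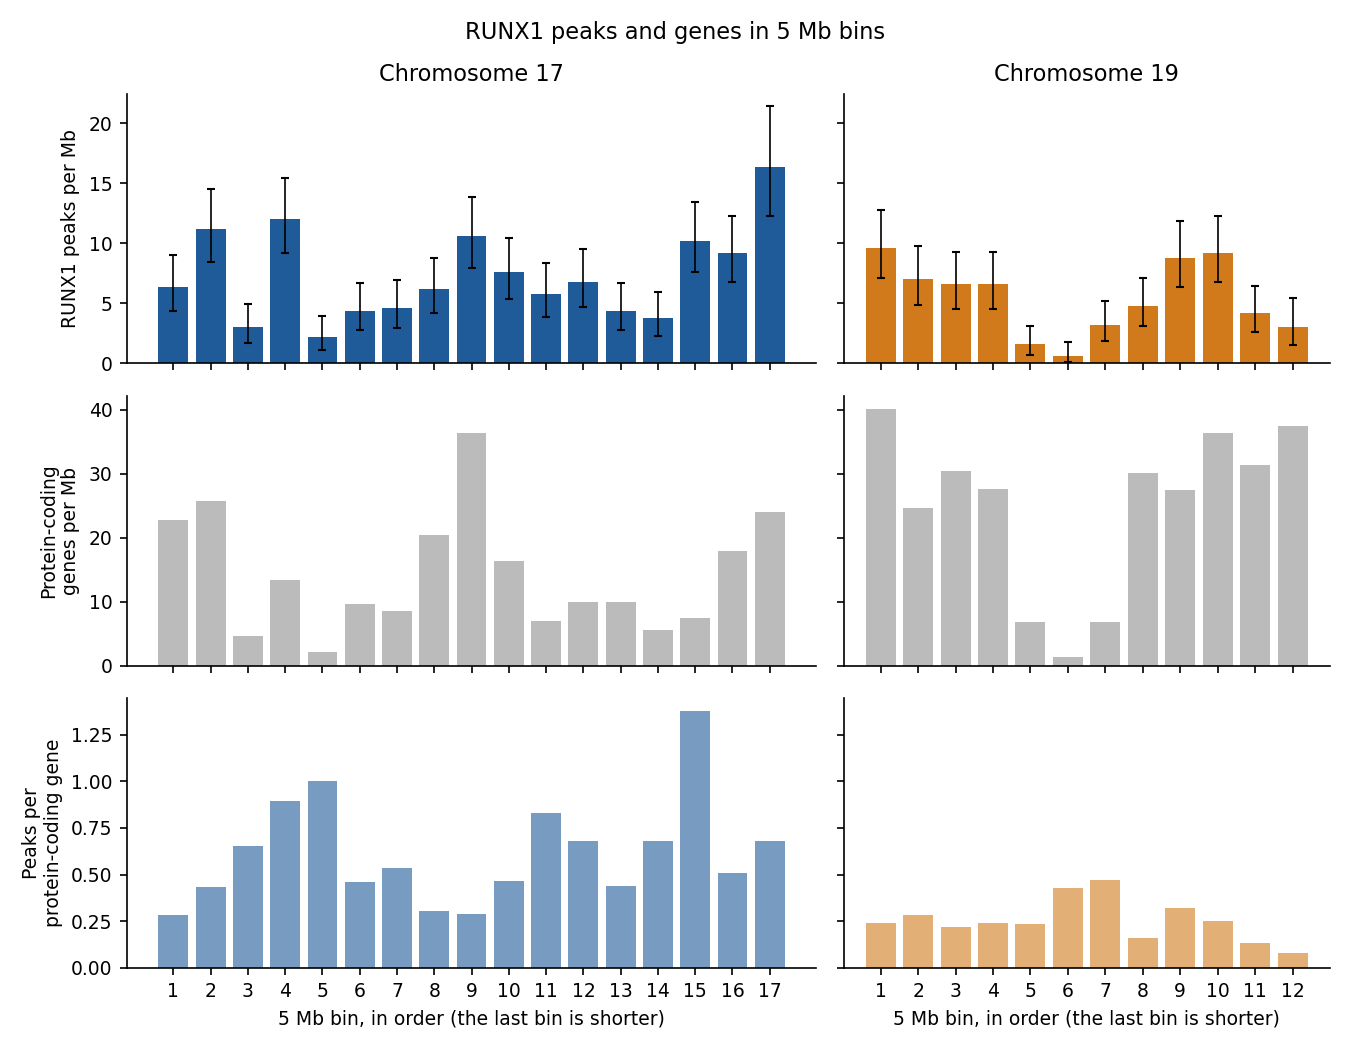
Peaks per Mb with exact 95% Poisson intervals (top), protein-coding genes per Mb (middle) and peaks per protein-coding gene (bottom) in consecutive 5 Mb bins of chromosome 17 (left) and chromosome 19 (right). The last bin of chromosome 17 reached 16.4 peaks per Mb, and no bin of chromosome 19 passed 9.60.

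On chromosome 19 no bin reached 10 peaks per Mb. Its densest bin was the first, 0 to 5 Mb, with 48 peaks or 9.60 per Mb (7.08 to 12.7) among 40.2 protein-coding genes per Mb. Its sparsest, 25 to 30 Mb, held 3 peaks and 7 genes. Over the bins of chromosome 17, peaks and protein-coding genes per Mb went together with Pearson's r = 0.66 and Spearman's rho = 0.76 (n = 17 bins). Over those of chromosome 19 the values were 0.72 and 0.52 (n = 12). These bins share 1 library and are given as a description.

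Peaks per gene followed a different course from peaks per Mb. The gene-poor bin 70 to 75 Mb led, with 51 peaks among 37 protein-coding genes, or 1.38 per gene. The bin richest in genes, 40 to 45 Mb, which holds the keratin genes and 182 protein-coding genes, had 0.291 peaks per gene. Of the next richest bins per Mb, 5 to 10 Mb had 0.434, the last bin, the densest in peaks, had 0.679, and 0 to 5 Mb had 0.281, the lowest of the chromosome, beside a median of 0.535 over the 17 bins. On chromosome 19 the ratio ranged from 0.0815 in the last bin to 0.471 at 30 to 35 Mb.

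In the bin from 70 to 75 Mb, 18 of the 51 peaks were more than 50 kb from any protein-coding gene, the highest count of the 17 bins, although 10 to 15 Mb (8 of 15) and 20 to 25 Mb (6 of 11) had higher shares. The region holds SOX9, a transcription factor of epithelial and cartilage cells, in a long stretch without other protein-coding genes. SOX9 itself had no summit within 5 kb, and it was the nearest protein-coding gene of 7 peaks. Of these, 6 lay 593 to 932 kb to one side, with pileups of 12 to 28 tags, and 1 with 17 tags lay 212 kb to the other side. SLC39A11, a zinc transporter gene, was nearest to 13 peaks of the bin, more than any other gene there, and SDK2, a cell adhesion gene, to 7. The tallest peaks of the bin were a pair of equal height and q-value, each with 34 tags (23.5 to 47.5), 15.1 kb from KCNJ2, a potassium channel gene, and 4.77 kb from SLC39A11.

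In the bin at the end of the chromosome, 34 of 53 peaks had their summit inside a protein-coding gene, and 2 were more than 50 kb from one. This was not particular to that bin. Summits inside a protein-coding gene were 27 of 32 at 0 to 5 Mb, 21 of 31 at 35 to 40 Mb and 22 of 34 at 55 to 60 Mb. The most frequent nearest genes of the last bin were BAHCC1 with 8 peaks, BAIAP2 and METRNL with 5 each and ASPSCR1 with 4. Within it, 13 summits fell in 237 kb from 81981120 to 82217853, around CCDC57 and the lactate transporter gene SLC16A3. That was the third densest stretch of 250 kb on the chromosome.

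Summits on chromosome 17 lay farther from gene ends than those on chromosome 19 and nearer than those elsewhere. An end is the first or last base of a protein-coding gene, start and finish not being distinguished. Of the 595 summits, 61 were within 1 kb of one (10.3%, 8.06 to 12.95%), against 57 of 322 on chromosome 19 (17.7%, 13.9 to 22.2%) and 7.19% (6.76 to 7.65%) on all chromosomes but 17. The median distance to the nearest end was 14.2 kb on chromosome 17, 5.99 kb on chromosome 19 and 28.3 kb on all chromosomes but 17. Peaks over 50 kb from every end made up 19.2% on chromosome 17, 4.66% on chromosome 19 and 36.7% elsewhere than on chromosome 17. Gene density ran in the same order. Protein-coding genes per Mb were 24.8 on chromosome 19, 14.0 on chromosome 17 and 6.28 on all chromosomes but 17. No random positions were drawn, so whether the distances differ from those of any positions on these chromosomes was not tested.

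**Figure D2:**
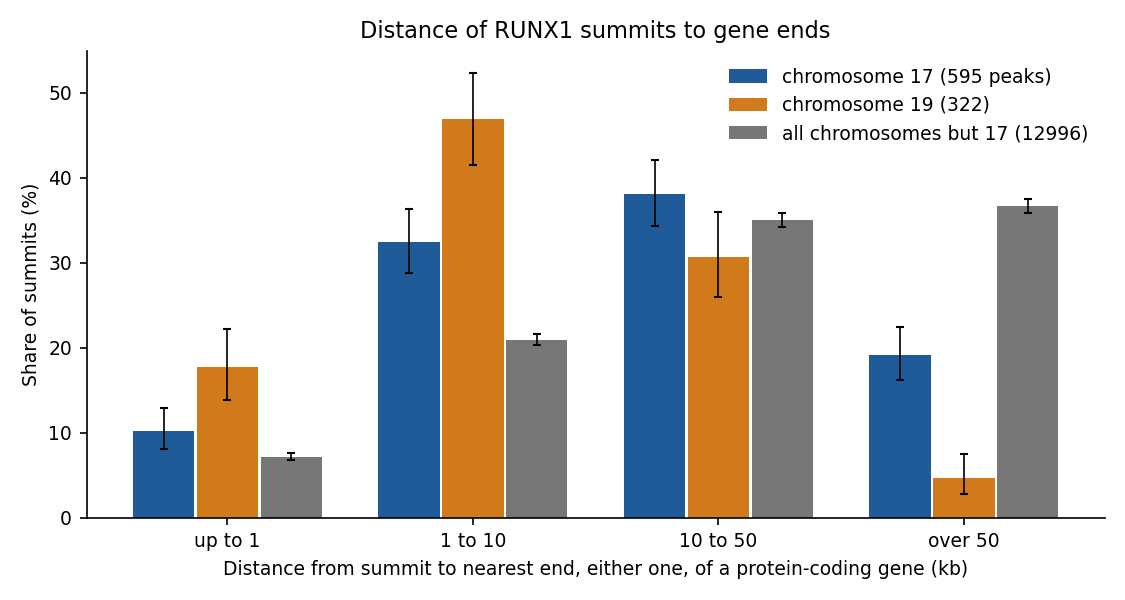
Share of summits (%) by distance to the nearest end of a protein-coding gene (kb) for chromosome 17, chromosome 19 and all chromosomes but 17, with 95% Wilson intervals. In the class over 50 kb the shares were 19.2%, 4.66% and 36.7%.

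Summits inside a protein-coding gene made up 49.2% (45.2 to 53.3%) of those on chromosome 17, 54.7% (49.2 to 60.01%) on chromosome 19 and 47.2% (46.3 to 48.0%) on all chromosomes but 17. Neighbouring summits on chromosome 17 were a median of 50.9 kb apart, against 70.2 kb on chromosome 19 and 79.3 kb on all chromosomes but 17. Of its 594 gaps, 140 were 10 kb or shorter (23.6%, 20.3 to 27.1%), against 19% on chromosome 19 and 19.1% on all chromosomes but 17. Shorter gaps go with more peaks per Mb, by which the chromosome was chosen, so they are not a separate result.

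The strongest site of the chromosome was at GH1, the pituitary growth hormone gene. Its peak spanned chr17:63916705-63917329 (625 bp), its summit at 63917268 lay inside the gene, 65 bp from one end of its 1.64 kb, and it had 77 tags (60.8 to 96.2), a fold enrichment of 20.8 and an input level of 1.25. It ranked 11th in the whole list by q-value. The 4 related genes of the same cluster, GH2, CSH1, CSH2 and CSHL1, had no peak. They are close copies of GH1, so tags that match several of them may have been placed on any.

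**Figure D3:**
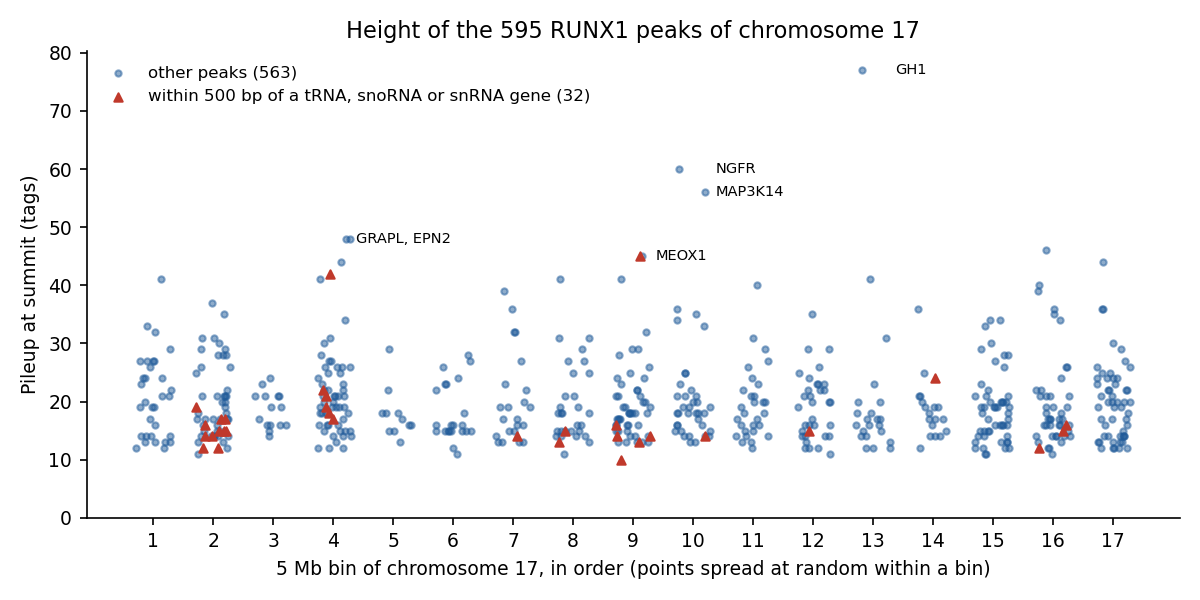
Pileup at the summit (tags) of the 595 chromosome 17 peaks by 5 Mb bin, with peaks beside tRNA, snoRNA and snRNA genes as triangles and the nearest protein-coding gene named at the 6 strongest. The site at GH1 stood highest at 77 tags, and the 32 triangles ranged from 10 to 45.

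The next site lay in NGFR, a nerve growth factor receptor gene expressed in basal mammary cells, at chr17:49510416-49510798. It had 60 tags (45.8 to 77.2), a fold enrichment of 16.2 and an input level of 1.25, and the antisense lncRNA NGFR-AS1 covers the same position. The third, at chr17:45329709-45330158, was 12.9 kb from MAP3K14, which encodes the kinase of the noncanonical NF-kappaB pathway, and had 56 tags (42.3 to 72.7) with an input level of 1.00. The intervals of these pileups overlap with each other and with that at GH1.

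The 15 strongest peaks by q-value had 39 to 77 tags, fold enrichments of 11.3 to 20.8 and input levels of 1.00 to 1.25. Their summits were in protein-coding genes in 6 cases, in lncRNA genes alone in 4 and in neither in 5. In 8 cases the nearest protein-coding gene was over 10 kb away, and 1 of the 15, that at GH1, was within 1 kb of a gene end. Inside genes were also the sites at RPTOR, the mTORC1 scaffold (44 tags, 155 kb from the nearer end), PECAM1, an adhesion gene of endothelial and blood cells (41 tags), RBFOX3, a splicing factor gene of neurons (40 tags, 192 kb from the nearer end), and MMP28, a matrix protease of epithelia (41 tags). Outside protein-coding genes were those 39.5 kb from MEOX1, a homeobox gene (45 tags), 44.5 kb from NT5M, a mitochondrial nucleotidase (44 tags), 28.6 kb from ITGA3, the integrin alpha-3 gene (40 tags), and 94.96 kb from RAB11FIP4, an effector of RAB11 in vesicle traffic (39 tags).

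In the bins without a site named above, the strongest peak by q-value had between 24 and 35 tags. They were in SMG6, a gene of nonsense-mediated decay (33 tags, 0 to 5 Mb), in KSR1, a scaffold of the RAS pathway (28 tags, 25 to 30 Mb), 12.4 kb from GUCY2D, a retinal guanylate cyclase gene (35 tags, 5 to 10 Mb), 86.1 kb from NOG, which encodes the BMP antagonist noggin (29 tags, 55 to 60 Mb), 130 kb from KCNJ12, a potassium channel gene (29 tags, 20 to 25 Mb), and 148 kb from HS3ST3A1, a heparan sulfate sulfotransferase gene (24 tags, 10 to 15 Mb). Both of the sparsest bins thus had their strongest site over 100 kb from any protein-coding gene.

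The 5 strongest peaks of chromosome 19 were of like height. The first lay in DPF1, a subunit of the neuronal BAF complex, with 65 tags (50.2 to 82.8) and a fold enrichment of 20.6. The others were in TDRD12 (53 tags) and MYO1F (43 tags), 2.34 kb from ZNF541 (48 tags) and 30.7 kb from ZNRF4 (43 tags). The interval of the tallest peak on chromosome 19 overlaps that of GH1.

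Some genes collected several peaks. KSR1 had 8, spread over 147 kb, with pileups of 15 to 28. CCDC57 and TOM1L2, which encodes an adaptor of endosomal sorting, had 7 each, of which 2 of those of CCDC57 lay inside the gene. Next came SEPTIN9, a cytoskeletal GTPase gene (6 peaks over 195 kb, 11 to 36 tags), BAHCC1, a chromatin reader (6), CTC1, a telomere maintenance gene (6), SLC16A3 (6), RPTOR (5), PECAM1 (5) and BAIAP2, an adaptor of actin signalling (5). CCDC57 and SLC16A3 are neighbours and shared 4 of these peaks, which lay outside both genes. At BAHCC1 the 6 peaks were packed into 3.37 kb, and 2 of them stood on an input level of 2.92, so they may not be separate sites. Of the 6 peaks of CTC1, 5 lay within 500 bp of a small RNA gene.

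Peaks beside small RNA genes took a larger share of the list on chromosome 17 than elsewhere. Of the 595, 32 (5.38%, 3.84 to 7.49%) had a summit within 500 bp of a tRNA, small nucleolar RNA (snoRNA) or small nuclear RNA (snRNA) gene, against 4 on chromosome 19 (1.24%, 0.484 to 3.15%) and 135 on all chromosomes but 17 (1.04%, 0.878 to 1.23%). These 32 were narrower and lower than the other 563, with a median width of 107.5 against 161 bp and a median pileup of 15 against 18 tags. Without them chromosome 17 still had 563 peaks, or 6.76 per Mb, and its ratio to chromosome 19 was 1.25 (1.08 to 1.43). These genes exist in many nearly identical copies, so tags may have been shared between copies, and which copy was bound cannot be told apart.

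tRNA genes, which RNA polymerase III transcribes, had a summit within 500 bp in 19 of 33 cases on chromosome 17 (57.6%, 40.8 to 72.8%). Over all chromosomes this held for 31.8% of 443 tRNA genes, and on chromosomes other than 17 for 122 of 410 (29.8%, 25.5 to 34.4%). On chromosome 19 it held for 4 of 7. The chromosome 17 share depended on the limits: 12 tRNA genes had a summit inside the gene (36.4%, against 19.9% over all chromosomes), and 9 had one within 500 bp with a fold enrichment of at least 5 (27.3%, against 12.4%). Their nearest summits had pileups of 12 to 24 tags, with a median of 15.

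A main group of tRNA genes lies in 108 kb from 8119155 to 8227064, and 11 of its 18 members had a summit nearby, against 8 of the 15 elsewhere on the chromosome. The same stretch gave chromosome 17 its densest 250 kb, with 18 summits between 7990195 and 8226205, of which 11 were beside a small RNA gene. Among its genes are TRS-GCT4-3 (summit inside, 19 tags), TRI-AAT5-5 (inside, 17 tags) and TRW-CCA1-1 (inside, 14 tags). The tallest tRNA site was at TRR-CCG2-1, outside that stretch, with 24 tags (15.4 to 35.7) and an input level of 1.00. The protein-coding gene HES7, a transcription factor of the somite clock, lies in the same stretch and had a further summit of 22 tags away from any small RNA gene.

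snoRNA genes with a summit were rare in the list and mostly on chromosome 17. There were 6 among its 53 (11.3%, 5.29 to 22.6%), against 3 of 1146 on chromosomes other than 17, and 0.751% of 1199 over all chromosomes. The 6 were SNORD118 and all 5 SNORD3 genes, which encode the U8 and U3 RNAs that take part in processing of ribosomal RNA and, unlike most snoRNAs, have promoters of their own. SNORD3A had 42 tags (30.3 to 56.8), SNORD3B-2 had 22, SNORD3C 21, SNORD3D 19, SNORD3B-1 17 and SNORD118 16. SNORD3A was higher than the others, and its interval overlaps those of SNORD3B-2 and SNORD3C. Input levels at the 6 were 1.00 to 1.25. The SNORD3 genes are near-identical, so how tags were divided among them cannot be told apart.

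snRNA genes had a summit within 500 bp in 7 of 20 cases (35.0%, 18.1 to 56.7%), against 18.2% of 154 over all chromosomes, 21 of 134 on chromosomes other than 17 and 0 of 28 on chromosome 19. Of the 7, 6 lay together between 43.2 and 43.297 Mb, among the peaks of the bin from 40 to 45 Mb. One of these, beside LOC124904138, had 45 tags on an input level of 5.01, the highest of the chromosome, and a fold enrichment of 3.82. With a fold enrichment of at least 5 required, 1 of the 7 was left, or 5% of the 20 genes against 5.19% over all chromosomes, so the higher share on chromosome 17 did not hold at that limit.

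**Figure D4:**
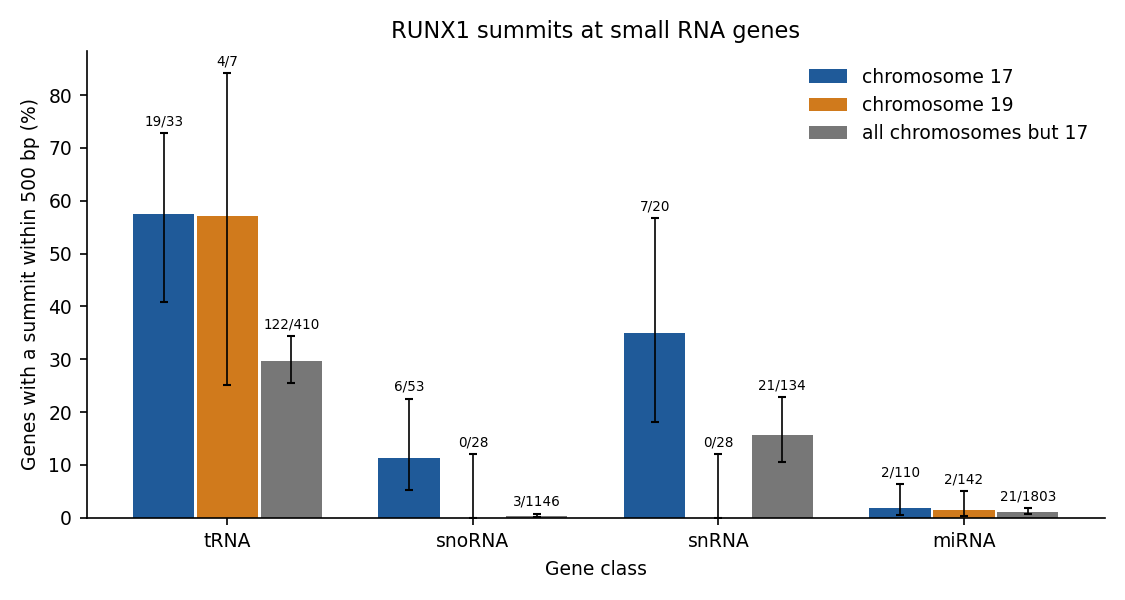
Share of tRNA, snoRNA, snRNA and miRNA genes (%) with a summit within 500 bp, for chromosome 17, chromosome 19 and all chromosomes but 17, with 95% Wilson intervals and the counts above each bar. The snoRNA share was 6 of 53 on chromosome 17 and 3 of 1146 on the others.

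MicroRNA genes, by contrast, had a summit within 500 bp in 2 of 110 cases on chromosome 17, near the 1.2% of 1913 over all chromosomes. The RefSeq mature sequences of those 2 hairpins are shown because they lie closest to a summit, with the seed (bases 2 to 8) in capitals.

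hsa-miR-4521 (chr17:8186948-8186969, plus strand): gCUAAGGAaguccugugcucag

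hsa-miR-6165 (chr17:49510825-49510843, plus strand): cAGCAGGAggugaggggag

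The hairpin of MIR4521 was 36 bp from a summit of 19 tags that also lay inside the tRNA gene TRS-GCT4-3. That of MIR6165 was 188 bp from the 60-tag summit in NGFR. The seeds of the 2 differ. RefSeq sequences with positions were at hand for 95 hairpins of chromosome 17, fewer than its 110 annotated microRNA genes. Within 5 kb of a summit were 9 of these 95 (9.47%, 5.06 to 17.03%), against 7.04% of 1562 hairpins over all chromosomes, among them MIR324 (2.65 kb, 26 tags), MIR423 (3.52 kb, 19 tags) and MIR301A (3.95 kb, 16 tags). MIR21, a widely expressed microRNA of epithelia and tumours, was 7.74 kb from a summit of 14 tags.

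The second densest 250 kb of chromosome 17 held a repeated arrangement. Between 18992990 and 19218912 there were 16 summits, 5 of them beside SNORD3 genes. A further 9 fell in 3 lncRNA genes, LOC102724624, GRAPL-AS1 and LOC388436, each of which has a kynureninase pseudogene (KYNUP2, KYNUP1 and KYNUP3) 5.82 to 5.96 kb from its tallest summit. In each lncRNA gene the tallest of 3 peaks had 41, 48 and 48 tags in the order named. A second peak lay 887 to 999 bp away with 19 to 28 tags, and the third lay 2374 to 2509 bp away with 21 to 26 tags.

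**Figure D5:**
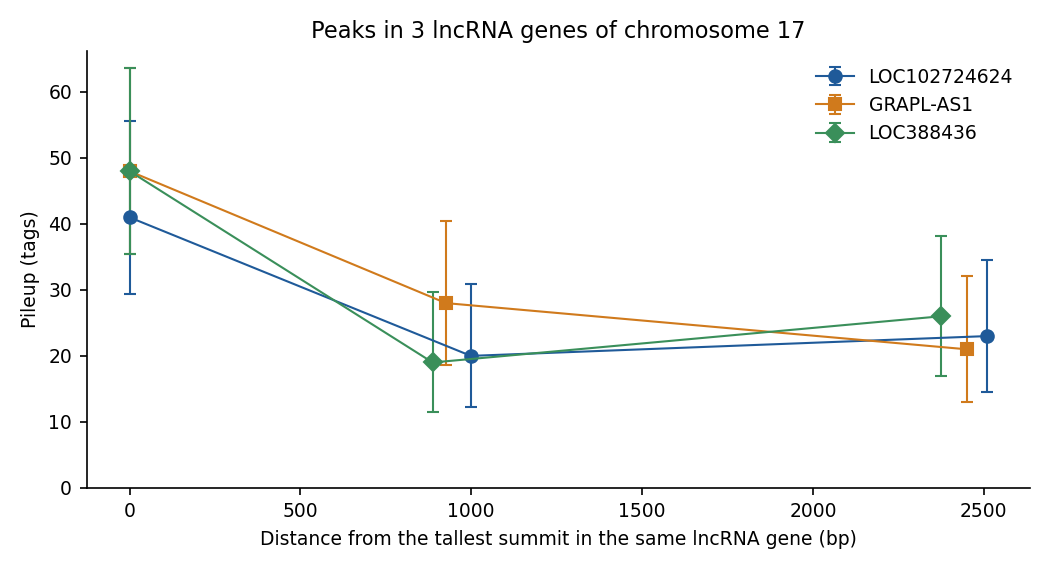
Pileup (tags) with exact 95% Poisson intervals against the distance (bp) from the tallest summit, for the 3 peaks in each of 3 lncRNA genes of chromosome 17. The second peaks lie at 887 to 999 bp and the third at 2374 to 2509 bp in all 3 genes.

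The spacing was thus alike to within 135 bp in the 3 genes, on opposite sides of the tallest summit in GRAPL-AS1 and in the other genes. The heights at each place overlapped in their intervals. Input levels were 1.00 to 1.67. The 3 genes were counted among the strongest sites of the chromosome through the neighbouring coding genes GRAPL, an adaptor gene, and EPN2, an endocytosis gene. Whether the 3 sets are separate sites or tags from one set spread over similar sequence cannot be told apart here.

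Gene groups of chromosome 17 were examined beside the background of 24.8%. Of 157 genes in 16 lists, 30 had a peak (19.1%, 13.7 to 25.97%), and the genes of the lists had a median length of 12.4 kb. No peak was found in or within 5 kb of the 10 HOXB genes, the 14 listed CC chemokine genes, the 6 skeletal myosin heavy chain genes or the 10 olfactory receptor genes. A further CC chemokine gene of the chromosome, CCL3L3, was not in the list and had a summit of 21 tags 2.34 kb away, a case taken up after its value was seen. Median gene lengths were 3.37 kb for the HOXB, 2.75 kb for the chemokine, 4.33 kb for the olfactory receptor and 30.1 kb for the myosin genes.

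Among 14 tumour suppressor and breast cancer genes, 5 had a peak (35.7%, 16.3 to 61.2%), an interval that includes the background of 24.8%. The 14 genes had a median length of 72.7 kb, against 24.1 kb for the protein-coding genes of all chromosomes. RNF43 had 3, the tallest with 35 tags (24.4 to 48.7) in the gene, on an input level of 2.09. It was next to the promoter window summit given above, which itself lay inside the gene, 14.7 kb from the nearer end. NF1, a negative regulator of RAS, had 2 (20 and 16 tags), and RAD51C, RAD51D and FLCN had 1 each (17, 18 and 13 tags). BRCA1, BRIP1, MAP2K4 and NCOR1 were among the 9 with none. Of 13 genes around ERBB2, the receptor gene amplified in some breast cancers, IKZF3, a lymphoid zinc finger gene (29 and 19 tags), and MED24, a Mediator subunit (22 and 16 tags), had peaks, and ERBB2 and GRB7 had none. The 22-tag summit counted for MED24 lay outside that gene, 0.577 kb from its neighbour CSF3.

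Of 16 type I keratin genes, the intermediate filament genes of epithelia, 4 had a peak (25%). KRT15 and KRT19 share a pair of peaks between them (13 and 16 tags), and KRT20 had 16 tags. KRT24 had 29 tags at a fold enrichment of 4.04, with the summit 1.66 kb outside the gene. The basal keratin genes KRT14 and KRT17 had none. Among 5 integrin genes ITGB3 had 5 peaks of 15 to 23 tags, while ITGA3 and ITGB4 had none within 5 kb. Of 12 genes of matrix, proteases and adhesion, 4 had a peak (33.3%): SEPTIN9, PECAM1, MMP28 and SERPINF1, the last with 12 tags at a summit inside the neighbouring gene SMYD4.

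Among regulators, 4 of 23 further transcription factor genes had a peak. SREBF1, the master regulator of lipid synthesis, had 3 (16 to 26 tags), and NFE2L1 (18 tags), TBX2 (16 tags) and FOXN1 (15 tags) had 1 each. The 3 summits counted for SREBF1 lay outside that gene and nearer to TOM1L2, 1.80 to 2.54 kb from it. Of the nuclear receptor genes, RARA, a retinoic acid receptor, had 2 peaks (21 and 23 tags), while THRA and NR1D1 had none. STAT5B had 1 (15 tags), and STAT3, STAT5A, SOCS3 and SOCS7 had none.

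In signalling, WNT3 (14 and 17 tags) and DVL2, which relays Wnt signals (26 tags), were the 2 of 5 Wnt and Frizzled pathway genes with a peak. The summit counted for DVL2 lay outside that gene and inside its neighbour ACADVL. Among 14 kinase genes, MAP3K3 (16 tags), CDK3 (13 tags), RPS6KB1 (12 tags) and CSNK1D (12 tags) had 1 each. The summit counted for CDK3 lay inside the neighbouring gene TEN1. MAP3K14 itself had none within 5 kb, since the 56-tag site lay farther off. Of the 4 Polycomb CBX genes, CBX8 had 1 (21 tags, fold enrichment 3.93), with its summit 4.34 kb outside the gene. Most of these peaks were near the median height of the chromosome, and the list shares stood on both sides of the background.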

How the data were processed

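The list came from RUNX1 ChIP and input DNA, 1 library of each, which the authors compared with MACS 2.1.2 (q-value limit 0.05). The submitters' processing notes name Bowtie2 and hg38. MACS kept 80338845 of 89501295 ChIP tags and 87410774 of 94686274 input tags. The authors deposited the pileup (a signal, the number of tags extended to 74 bp over the summit), the fold enrichment (a ratio of pileup to local background, each plus 1), and −log10 p and q-values. With 1 tag kept per position and strand, a pileup cannot exceed 148. No authors' comparison columns between samples were present.

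From the deposited values the local background was recovered as (pileup + 1) / fold enrichment − 1 and divided by the genome background of 2.20 tags (the input level). MACS uses the highest background it finds, so values below 1 cannot occur. Peaks were placed by summit and genes by midpoint in 5 Mb bins. Gene intervals came from a RefSeq table of GRCh38.p14 without strand or exons, so exons and introns were not told apart. Chromosome length was taken as the larger of the last gene end and last peak end. Named are genes in or nearest to the 15 strongest peaks (5 on chromosome 19), the strongest peak of each bin, the 10 genes with most peaks, up to 12 promoters and the gene lists. The members and lists were chosen with earlier results of these data known. Some genes of the lists are not reported here, and the lists' counts leave them out. Small RNA genes, microRNAs, 250 kb stretches, distance classes, the peaks near SOX9 and the 3 lncRNA genes were taken up after values were seen. Scripts ran in Python 3.11.15 with pandas 2.3.3 and SciPy 1.17.1 and were checked on simulated peaks.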

Additional observations from a re-analysis of the deposited data

How the results depend on the processing

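No paired analysis was possible because there was 1 library of each kind, and no replicate could be left out. Of 32 alternative values for 9 results, 24 stayed within 1.5 times the main count or density, or within the main counting interval. Peaks per Mb on chromosome 17 were 3.96 with a fold enrichment of at least 5 and 4.04 with an input level of at most 1.1 times background, and the ratio to chromosome 19 stayed between 1.25 and 1.36 under all 5 alternatives. The ratio per protein-coding gene was 1.84 with all genes counted. The densest bin had 8.64 peaks per Mb with a fold enrichment of at least 5, and was again the last one. With peaks within 1 kb merged, the last bin was again the densest, with 41 peaks or 12.7 per Mb. With bins shifted by 2.5 Mb, the densest of those at least 2.5 Mb long ran from 77.5 to 82.5 Mb, at 13.8 per Mb. With 50 kb on either side, 701 protein-coding genes (59.97%, against 52.1% over all chromosomes) had a peak, above the background. That share goes with the peak density by which the chromosome was chosen and is not a separate result. With 5 kb the share was 22.8% (20.4 to 25.2%), close to the background of 24.8%. Counts at small RNA genes, added after seeing the data, were 12 tRNA genes with the summit inside (36.4%, against 19.9% over all chromosomes), plus, at fold enrichments of 5 or more, 9 tRNA genes (27.3%, against 12.4%) and 1 snRNA gene (5%, against 5.19%), which ended the difference for snRNA genes. The lowest pileup on chromosome 17 was 10 tags, so sites below about that height could not appear in the list.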
